A study of Mus musculus with 3 samples.

Results

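The growth factor genes described here were *Hbegf*, *Areg* and *Ereg* of the EGF family, *Vegfa*, *Vegfb* and *Vegfc* of the VEGF family, *Pdgfa* and *Pdgfb* of the PDGF family, and the hepatocyte and insulin-like growth factors *Hgf* and *Igf1*. They were taken by name, as the gene probes of the arrays that carry 1 of these symbols. This gave 10 genes with 23 probes, of 26840 genes with a symbol and 56605 gene probes in all. RNA of RAW macrophages, a mouse macrophage cell line, was hybridised in 1 colour (Cy3) to SurePrint G3 Mouse GE microarrays, on which the brightness of a probe follows the abundance of its transcript. The 3 arrays held 1 condition each, namely LPS alone, *L. rhamnosus* CRL1505 followed by LPS (CRL1505 + LPS) and *L. plantarum* CRL1506 followed by LPS (CRL1506 + LPS). The lactobacilli were given for 24 h at 50000000 cells/mL and removed by washing, and all 3 cultures then received 50 ng/mL of LPS, the cell wall component of Gram-negative bacteria that activates TLR4. The time of LPS was 12 h by the design of the series and 3 h by the sample descriptions. Cells without LPS were not analysed here, and each ratio below is set against LPS alone or against the other strain.

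Each condition had 1 array, so replicates could not be compared, and the ratios come without a test. The LPS array shared a slide and a scan with that of CRL1506 + LPS, while CRL1505 + LPS was hybridised on another slide and scanned apart, so strain and slide cannot be told apart in any comparison of CRL1505. Of 59305 gene spots, between 48.5% (CRL1505 + LPS) and 55.3% (CRL1506 + LPS) were well above background, a mark that the scanner software sets for each spot. Over probes spotted repeatedly, the log2 ratio between arrays had a median SD of 0.048 for CRL1505 against LPS, 0.043 for CRL1506 against LPS and 0.047 between the strains, which is the error inside an array alone. Different probes of a gene varied more, with median SDs of 0.23, 0.21 and 0.32, respectively. All 8 macrophage marker genes were well above background on the 3 arrays, and their summed signal, in units of the 75th percentile of the array, was 686 in LPS, 689 in CRL1505 + LPS and 571 in CRL1506 + LPS.

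Growth factors of these families are secreted or membrane-bound proteins that activate receptor tyrosine kinases on neighbouring cells. HB-EGF, amphiregulin and epiregulin are made as membrane precursors, are cut free by ADAM proteases and bind EGF receptors, which drives growth of epithelial cells. VEGF-A drives the formation of blood vessels, VEGF-C that of lymphatic vessels, and PDGF chains act as dimers on fibroblasts and smooth muscle cells. HGF binds the MET receptor, and IGF-1 binds the IGF-1 receptor and is held in the extracellular fluid by binding proteins. Macrophages are known as a source of several of these factors during the repair of injured tissue.

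The probe sequences below are shown because the 2 genes that passed 2-fold against LPS rest on the first 2 probes, and because different probes of *Vegfa* and *Vegfc* gave different pictures. Positions are those of the array files, on the mm9 build, and the probes are 60 bases long. Sequences are written 5′ to 3′ in lower case, and the first 30 bases are given except for 2 probes shown whole. The brightest *Igf1* probe lies at chr10:87393516-87393575 on the plus strand, the brightest *Pdgfb* probe at chr15:79826376-79826435 on the minus strand, and the brightest *Vegfa* probe at chr17:46159226-46159282 on the minus strand. The *Vegfc* probes lie on the plus strand, the first within chr8:55163262-55271349, a range far longer than the probe, and the second at chr8:55244696-55244755. The *Vegfa* probe lies in the part of the transcript for the basic, heparin-binding stretch that shorter VEGF-A isoforms lack.
*Igf1*, A_51_P147942, first 30 bases: cgcaggatcctttgctgcttgagcaacctg
*Pdgfb*, A_55_P2047310, first 30 bases: gttccttctgcttccttcagtttgtaaagt
*Vegfa*, A_55_P2741794: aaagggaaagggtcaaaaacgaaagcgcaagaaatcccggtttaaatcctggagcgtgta
*Vegfc*, A_55_P2745054, first 30 bases: gacgggggcgaggtcaagttgttacagaag
*Vegfc*, A_55_P2745057: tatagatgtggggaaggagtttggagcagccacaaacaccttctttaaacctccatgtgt

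*Igf1* and *Pdgfb*, whose brightest probes lay far above background on each array, were lower with both strains, and no growth factor had a ratio or bound of 2-fold above LPS alone. *Igf1* was 2.30-fold lower than in LPS in CRL1505 + LPS, and *Pdgfb* was 2.30-fold lower in CRL1506 + LPS. Each was the only growth factor past 2-fold in its comparison, where 2-fold is the threshold the study's methods name. The study used it together with a t-test and against cells without LPS, whereas here it is used alone and against LPS. In CRL1505 + LPS 9.93% of all genes passed 2-fold upwards and 8.41% downwards, against 0 and 1 of 8 growth factors with a ratio. In CRL1506 + LPS 5.67% of all genes passed upwards and 3.53% downwards, against 0 and 1 of 9 growth factors. The median log2 ratio of the growth factors was -0.51 in CRL1505 + LPS, with 2 genes above 0 and 6 below, while it was 0.01 over all 15603 genes compared. In CRL1506 + LPS it was 0.27, with 5 genes above 0 and 4 below, and -0.06 over all 16279 genes. These medians hold lower bounds, which are explained with *Ereg* and *Vegfa*. The 6 genes below 0 in CRL1505 + LPS include the bounds of *Vegfa* and *Vegfc*, whose probes gave different pictures. They also include *Areg*, which kept its sign under 4 of 7 other normalizations. The medians are thus not read as a shift of the whole group.

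**Figure D1:**
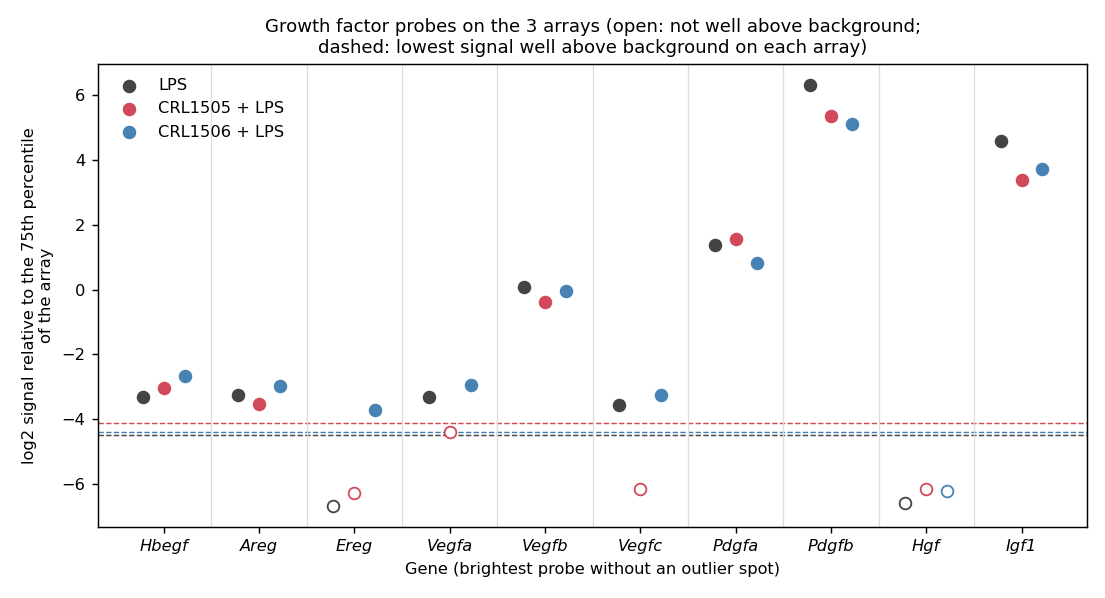
The vertical axis gives the log2 signal of the brightest probe of each growth factor gene, relative to the 75th percentile of its array, and the horizontal axis the gene. Points are single arrays (grey LPS, red CRL1505 + LPS, blue CRL1506 + LPS), open points were not well above background, and dashed lines mark the lowest signal that was. For *Pdgfb* and *Igf1* both strains lie below LPS, while *Hgf* is open on all 3 arrays; heights of different genes rest on different probes and are not compared.

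*Igf1* encodes insulin-like growth factor 1, a survival and growth factor that macrophages release in tissue repair. Its brightest probe had an intensity of 17994 in LPS, 5444 in CRL1505 + LPS and 9165 in CRL1506 + LPS. On the log2 scale, relative to the 75th percentile of each array, these ratios to LPS were -1.20 for CRL1505 and -0.88 for CRL1506. Both strains were therefore below LPS, and the array of CRL1505 was the lowest. In CRL1505 + LPS 5.90% of all genes compared had a lower ratio than *Igf1*, and in CRL1506 + LPS 4.37%. The call of 2-fold in CRL1505 + LPS held under 6 of 7 other normalizations, with a log2 ratio from -1.72 to -0.91, while in CRL1506 + LPS 2 of 7 put *Igf1* past 2-fold, with a range from -1.08 to -0.75. A second probe had intensities of 1077, 519 and 657 for LPS, CRL1505 + LPS and CRL1506 + LPS. Its log2 ratios of -0.53 and -0.62 had the same sign as those of the brightest probe but were smaller. For CRL1505 the SD of both probes was above the usual SD between probes of a gene, and for CRL1506 it was below. With the mean over probes in place of the brightest one, the *Igf1* ratio for CRL1505 was -0.87 and no longer past 2-fold. The third probe was not used, since its spot on the LPS array was marked as an outlier (446 against 17.99 and 46.4). Between the strains, the *Igf1* ratio of CRL1505 over CRL1506 was -0.32 with the brightest probe and 0.09 with the second.

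*Pdgfb* encodes the B chain of PDGF, a chemoattractant of fibroblasts and smooth muscle cells. Its brightest probe had an intensity of 59728 in LPS, 21226 in CRL1505 + LPS and 24437 in CRL1506 + LPS. The log2 ratio to LPS was -0.97 for CRL1505, a 1.96-fold lower signal just inside the threshold, and -1.20 for CRL1506. The LPS array was thus well above both strains, which lay close to each other with a log2 ratio of 0.23. The CRL1506 value stayed past 2-fold under 7 of 7 other normalizations (-1.40 to -1.06), and 5 of 7 put the CRL1505 value past 2-fold (-1.49 to -0.67). In all, 2.46% of the genes compared in CRL1506 + LPS had a lower ratio than *Pdgfb*, and 8.79% in CRL1505 + LPS. A second probe read 1145 in LPS, 428 in CRL1505 + LPS and 798 in CRL1506 + LPS, with log2 ratios of -0.90 and -0.43. The probes hence gave like values for CRL1505, but for CRL1506 they differed by more than the usual SD between probes, and the mean over probes put *Pdgfb* at -0.81, inside 2-fold. Around the second probe, 7 of the 20 nearest spots in LPS and 5 in CRL1506 + LPS were uneven, that is, their mean pixel signal was above the median pixel signal by over 0.2 in log2 terms, and the part of this in its values was not tested.

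*Pdgfa*, which encodes the A chain of PDGF, did not follow *Pdgfb* in CRL1505 + LPS. Its probe had intensities of 1911 in LPS, 1528 in CRL1505 + LPS and 1233 in CRL1506 + LPS, and log2 ratios to LPS of 0.20 and -0.54. The sign for CRL1505 turned under the spike-in scaling (-0.32), while in CRL1506 + LPS the value was below 0 under all 7 other normalizations (-0.74 to -0.46). Between the strains *Pdgfa* was higher with CRL1505, with a log2 ratio of 0.74, which is the highest of the growth factors in that comparison and lay between 0.39 and 1.24 under the other normalizations. The second *Pdgfa* probe gave -0.36 for CRL1506 and no value for CRL1505, where its spot was an outlier.

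**Figure D2:**
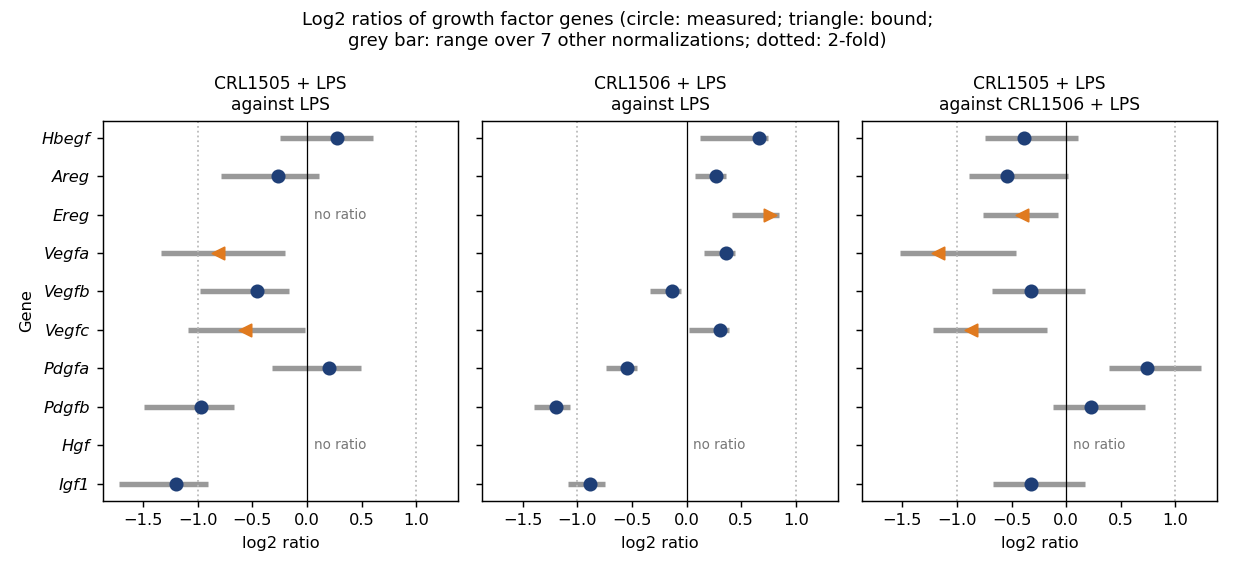
Each panel gives 1 comparison, with the log2 ratio on the horizontal axis and the growth factor genes on the vertical axis. Circles are measured ratios, triangles are lower bounds of the size of a difference, grey bars span 7 other normalizations and dotted lines mark 2-fold. *Igf1* and *Pdgfb* lie left of 0 in both comparisons with LPS over their whole bars, and the *Vegfa* and *Vegfc* bounds lie left of 0 wherever CRL1505 is compared.

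In the VEGF family *Vegfb* was well above background on the 3 arrays, while the probes of *Vegfa* and *Vegfc* lay near background. *Vegfb* encodes a VEGF receptor 1 ligand linked to the survival of vessels and to lipid uptake, and its single probe had intensities of 784 in LPS, 397 in CRL1505 + LPS and 671 in CRL1506 + LPS. The log2 ratios to LPS were -0.46 and -0.13, so that neither passed 2-fold, and the CRL1506 array lay close to LPS. Both kept their sign under all 7 other normalizations, from -0.98 to -0.16 and from -0.33 to -0.05.

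*Vegfa* encodes the main inducer of vessel growth. Its brightest probe, the one in the heparin-binding stretch, had an intensity of 74.97 for LPS and 90.4 for CRL1506 + LPS, and of 24.4, not well above background, for CRL1505 + LPS. Such a spot gives only a limit, so the ratio was taken against the lowest intensity well above background on that array, 29.6 for CRL1505 + LPS. By this, *Vegfa* in CRL1505 + LPS was at least 1.76-fold below LPS and at least 2.26-fold below CRL1506 + LPS. Under other normalizations these bounds fell to as little as 1.15-fold and 1.37-fold. The second of these bounds was the only growth factor difference past 2-fold between the strains, and it was past 2-fold in 2 of 7 other normalizations. The log2 ratio of CRL1506 to LPS was 0.36, a signal slightly above that of LPS. The other 3 *Vegfa* probes gave no bound of this size. One of them, with 43.9, 28.0 and 40.4 for LPS, CRL1505 + LPS and CRL1506 + LPS, gave bounds of only -0.04 against LPS and -0.02 between the strains. The remaining pair lay between 6.84 and 20.9 and was well above background on no array.

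*Vegfc*, the inducer of lymphatic vessel growth, had 3 probes that went different ways. The brightest had intensities of 63.1 for LPS and 73.3 for CRL1506 + LPS, and of 7.19 for CRL1505 + LPS, not well above background. This made *Vegfc* at least 1.48-fold lower in CRL1505 + LPS than in LPS and at least 1.83-fold lower than in CRL1506 + LPS, with a log2 ratio of CRL1506 to LPS of 0.31. Other normalizations lowered these bounds to as little as 1.02-fold and 1.13-fold. A second probe was well above background on the CRL1505 + LPS array alone (32.3, against 9.86 for LPS and 9.60 for CRL1506 + LPS), and its bounds had the opposite sign, 0.48 against LPS and 0.40 between the strains. The third probe, between 6.42 and 17.5, was well above background on no array. The direction of *Vegfc* with CRL1505 thus depends on the probe.

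**Figure D3:**
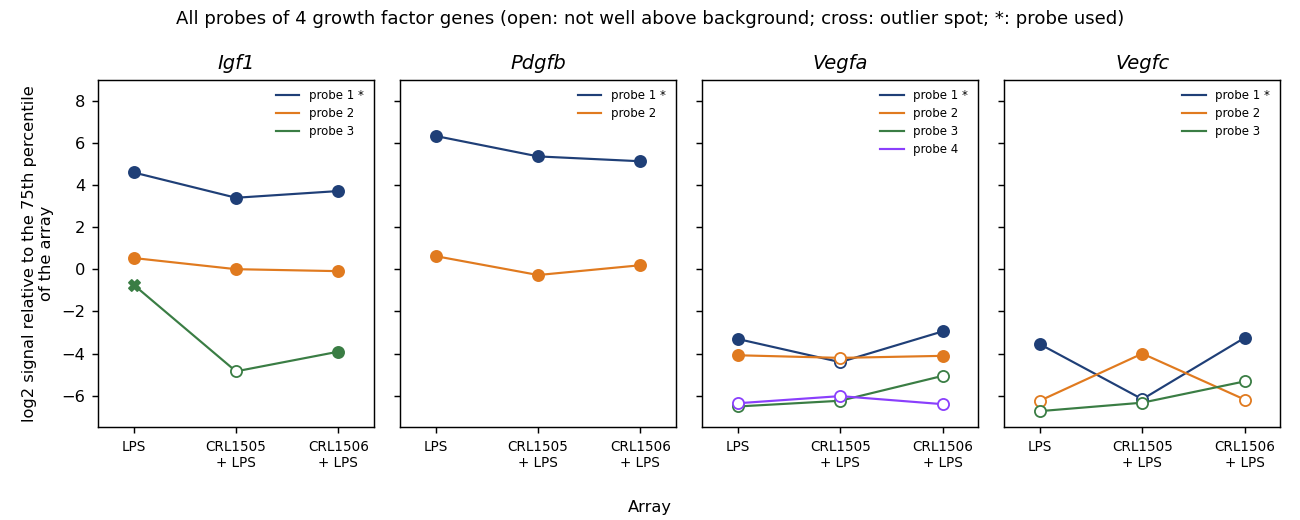
Log2 signal relative to the 75th percentile of the array (vertical axis) on each array (horizontal axis) for every probe of 4 growth factor genes, 1 line for each probe. Filled points were well above background, open points were not, and a cross marks an outlier spot. The usable probes of *Igf1* and *Pdgfb* are lower with both strains, whereas the *Vegfa* and *Vegfc* probes lie near background and the *Vegfc* probes cross.

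The EGF family ligands were near background, and none passed 2-fold against LPS. *Hbegf*, which encodes heparin-binding EGF, a ligand that macrophages release in wounds, had intensities of 74.3 in LPS, 62.5 in CRL1505 + LPS and 110.4 in CRL1506 + LPS. Its log2 ratios to LPS were 0.27 and 0.66, and the CRL1506 array was the highest after this scaling too. That order of the strains was kept under only 3 of 7 other normalizations. The value for CRL1506 was above 0 under 7 of 7 other normalizations (0.13 to 0.75), while that for CRL1505 turned to -0.25 under the spike-in scaling. The other *Hbegf* probe was well above background on no array. *Areg* encodes amphiregulin, a factor for epithelial repair in type 2 immune responses, and had intensities of 77.4, 44.8 and 87.9 for LPS, CRL1505 + LPS and CRL1506 + LPS. Its log2 ratios to LPS were -0.27 and 0.27, the first of which turned sign under 3 of 7 other normalizations. *Ereg*, the gene of epiregulin, was well above background on the CRL1506 + LPS array alone, with 53.1 against 7.25 for LPS and 6.60 for CRL1505 + LPS. It was at least 1.70-fold higher there than in LPS, from a single spot that was uneven, and it had no ratio between CRL1505 + LPS and LPS. The *Ereg* spot was the only uneven one among the brightest probes of the 10 growth factors. 

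*Hgf*, which encodes hepatocyte growth factor, a product of mesenchymal cells that acts on epithelium, was not detected. Its 4 probes had intensities between 5.91 and 9.37 and were well above background on no array, so no ratio is given. In all, 9 of the 23 growth factor probes were well above background on the 3 arrays, 6 on only some of them and 8 on none.

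Between the strains, 9 growth factors had a ratio, of which 2 were above 0 (*Pdgfa* and *Pdgfb*) and 7 below. The median was -0.39, beside 0.03 over all 15780 genes compared. This median is the value of the dim *Hbegf* probe, and the 7 below 0 include the bounds of *Ereg*, *Vegfa* and *Vegfc*. No growth factor was 2-fold higher and 1 was 2-fold lower in CRL1505 + LPS (*Vegfa*, as a bound), while over all genes 9.02% passed 2-fold upwards and 7.47% downwards. The order of the strains was kept under 3 of 7 other normalizations for *Hbegf* and *Pdgfb*, and under 6 of 7 for *Areg*, *Vegfb* and *Igf1*. The second *Pdgfb* probe gave -0.46 between the strains, below 0. Both comparisons with LPS use the same LPS array, and both comparisons of CRL1505 the same CRL1505 + LPS array.

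The scaling of the arrays bears on every value here. Shifting by the median in place of the 75th percentile moved the median of all genes by 0.30 for CRL1505 against LPS, by -0.20 for CRL1506 against LPS and by 0.50 between the strains, and scaling by spike-in probes moved it by -0.52, -0.17 and -0.35. Taking the 75th percentile over detected probes moved it by -0.12 and -0.20 in the comparisons of CRL1505. Of all genes past 2-fold, 54.1%, 61.6% and 54.7% were higher in the 3 comparisons. The median shift turned these shares to 76.1%, 43.4% and 89.0%, and the spike-in scaling to 19.4%, 46.1% and 26.1%. For CRL1506 against LPS the share was 51.4% after quantile normalization, and between the strains it was 66.0% after cyclic loess, 69.3% after normexp background correction and 36.5% with the percentile over detected probes. Under every one of these scalings *Igf1* and *Pdgfb* remained below LPS with both strains.

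*Pdgfb* had the largest root mean square of its log2 ratios to LPS (1.09) among the growth factors measured on all arrays. Among 13123 genes well above background on the 3 arrays, the genes with the nearest pair of ratios were *Soga1* (-1.03 for CRL1505 and -1.17 for CRL1506, at a distance of 0.070), *Tgfbr2*, the type II receptor of TGF-β (-0.98 and -1.08, 0.12), and *Srd5a1*, a steroid reductase (-1.05 and -1.10, 0.13). This likeness is over 3 arrays, and the pairs of ratios share the LPS array.

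The receptors of these ligands were examined next, since a macrophage can respond to its own growth factors. Of 16 receptor genes, 10 had a ratio in CRL1505 + LPS, with 2 at least 2-fold higher and 2 lower (median log2 ratio -0.16). In CRL1506 + LPS 11 had a ratio, with 1 higher and none lower (median -0.17). Over all genes, 9.93% were higher and 8.41% lower with CRL1505 (median 0.01), and 5.67% and 3.53% with CRL1506 (median -0.06). With so few receptors, these counts are not read as a result about them. *Igf1r*, the receptor of IGF-1, had intensities of 1260 in LPS, 388 in CRL1505 + LPS and 1049 in CRL1506 + LPS. It was 2.26-fold lower in CRL1505 + LPS than in LPS, while the log2 ratio for CRL1506 was -0.17, but another *Igf1r* probe gave -0.18 for CRL1505, and 5 of 7 other normalizations kept the 2-fold call. The insulin receptor gene *Insr* and the IGF-2 receptor gene *Igf2r* did not pass 2-fold, with a bound of -0.28 and a ratio of -0.59 for CRL1505 and ratios of 0.04 and -0.53 for CRL1506. *Met*, the HGF receptor, was not well above background in LPS (17.9) but was in CRL1505 + LPS (137.9) and CRL1506 + LPS (93.4), and so was at least 5.95-fold and at least 2.98-fold higher, although under other normalizations the log2 bounds fell from 2.57 to 1.55 and from 1.58 to 0.81, the second of them past 2-fold in 5 of 7.

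Receptors of the VEGF family differed between the neuropilins, which are co-receptors. *Nrp1* had intensities of 14826 in LPS, 3967 in CRL1505 + LPS and 10665 in CRL1506 + LPS, and was 2.60-fold lower with CRL1505, past 2-fold under all 7 other normalizations. Its other probes gave smaller values, and over the 5 measured probes the log2 ratio ran from -1.38 to -0.27 for CRL1505, while over 7 probes it ran from -0.45 to 1.65 for CRL1506, where the brightest gave -0.38. *Nrp2* had 57047, 89993 and 47893 for LPS, CRL1505 + LPS and CRL1506 + LPS. It was 2.27-fold higher in CRL1505 + LPS than in LPS and 2.54-fold higher than in CRL1506 + LPS, yet over its 3 probes the log2 ratio for CRL1505 ran from -0.13 to 1.18. The tyrosine kinase receptors were dim. *Flt1* had 43.9, 17.1 and 57.3, *Kdr* was well above background in CRL1506 + LPS alone (51.4), and *Flt4* was on no array.

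Of the EGF receptors, *Egfr* was well above background on no array, *Erbb2* was dim (53.9, 17.2 and 43.0 for LPS, CRL1505 + LPS and CRL1506 + LPS), and the log2 ratios of *Erbb3* and *Erbb4* were 0.72 and 0.07 for CRL1505 and -0.24 and -0.39 for CRL1506. The PDGF receptor genes *Pdgfra* and *Pdgfrb* and the *Met* relative *Mst1r* were well above background on no array.

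Other ligands of the same families were detected in part. Of 8 further EGF family ligands 3 were on no array well above background, of 4 further VEGF and PDGF ligands 2 and of 2 further HGF and IGF ligands 1. *Btc*, the gene of betacellulin, was lower with both strains, by at least 4.30-fold for CRL1505 and at least 5.21-fold for CRL1506. This rests on a spot of the LPS array (183 against 6.68 and 7.75) that was uneven, with 5 of its 20 nearest spots uneven too, and the log2 bounds shrank to -0.97 and -1.34 under other normalizations. *Pgf*, the gene of placental growth factor, was at least 2.18-fold higher in CRL1505 + LPS (55.4) than in CRL1506 + LPS (34.3, not well above background), and 3 of 7 other normalizations kept this past 2-fold. The macrophage-stimulating protein gene *Mst1* had log2 ratios to LPS of 0.78 and 0.62, and *Igf2* was well above background on no array.

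Among 8 genes of IGF binding proteins and their carrier, 4 had a ratio to LPS with each strain. *Igfbp4*, whose product binds IGF-1 and limits its access to the receptor, had intensities of 985 in LPS, 87.5 in CRL1505 + LPS and 421 in CRL1506 + LPS. It was 7.83-fold lower with CRL1505, 2.20-fold lower with CRL1506, and 3.56-fold lower with CRL1505 than with CRL1506. Both of its probes were lower with each strain, with log2 ratios of -2.97 and -2.59 for CRL1505 and of -1.14 and -1.85 for CRL1506, and the calls against LPS held under all 7 other normalizations. Between the strains the log2 ratio was -1.83 with the brightest probe and -0.74 with the other, and other normalizations took the first to as little as -0.47, with 6 of 7 past 2-fold. *Igf1* and *Igfbp4* were thus both lower with both strains. *Igfbp3* was 2.01-fold higher in CRL1506 + LPS from dim signals (38.8 in LPS and 73.4 in CRL1506 + LPS). Of 7 other normalizations, 1 kept this past 2-fold. *Igfbp6* was well above background in LPS alone. It was at least 1.84-fold below LPS in CRL1505 + LPS and at least 2.23-fold below LPS in CRL1506 + LPS. The first bound was past 2-fold in 1 of 6 other normalizations that gave a value, and the second in 5 of 7. Both bounds rest on the same uneven LPS spot, with 9 of its 20 nearest spots uneven too. They differ by the limit of each array, not by the *Igfbp6* signal.

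Ligand processing genes showed 1 gene at least 2-fold higher and 3 lower of 13 in CRL1505 + LPS (median -0.27), and 0 and 1 of 14 in CRL1506 + LPS (median -0.10). The shares over all genes were 9.93% and 8.41% for CRL1505, and 5.67% and 3.53% for CRL1506. The protease genes that free EGF family ligands, *Adam17* and *Adam10*, had log2 ratios of -0.58 and -0.41 for CRL1505 and of -0.43 and -0.47 for CRL1506. For CRL1505, the *Adam17* probes ran from -1.30 to -0.45 and the *Adam10* probes from -0.89 to -0.41. *Rhbdf2*, whose product escorts ADAM17 to the cell surface, had intensities of 8664, 14233 and 7451 for LPS, CRL1505 + LPS and CRL1506 + LPS. It was 2.36-fold higher with CRL1505 than in LPS and 2.58-fold higher than with CRL1506. The genes past 2-fold downwards encode proteases. *Plau*, the urokinase gene, was 5.86-fold lower with CRL1505 (3331 against 396), and its CRL1506 value (1618) gave a log2 ratio of -0.95. *St14*, the gene of matriptase, was 2.73-fold lower with CRL1505 (743 against 190 in intensity). *Hpn*, the gene of hepsin, was 3.13-fold lower with CRL1505 and 2.69-fold lower with CRL1506. The calls against LPS of *Plau*, *St14* and *Hpn* held under all 7 other normalizations. *Hgfac*, the gene of the HGF activator, had a bound of -0.01 for CRL1505 and a log2 ratio of 0.11 for CRL1506, and *Plat*, the tissue plasminogen activator gene, was well above background on no array.

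**Figure D4:**
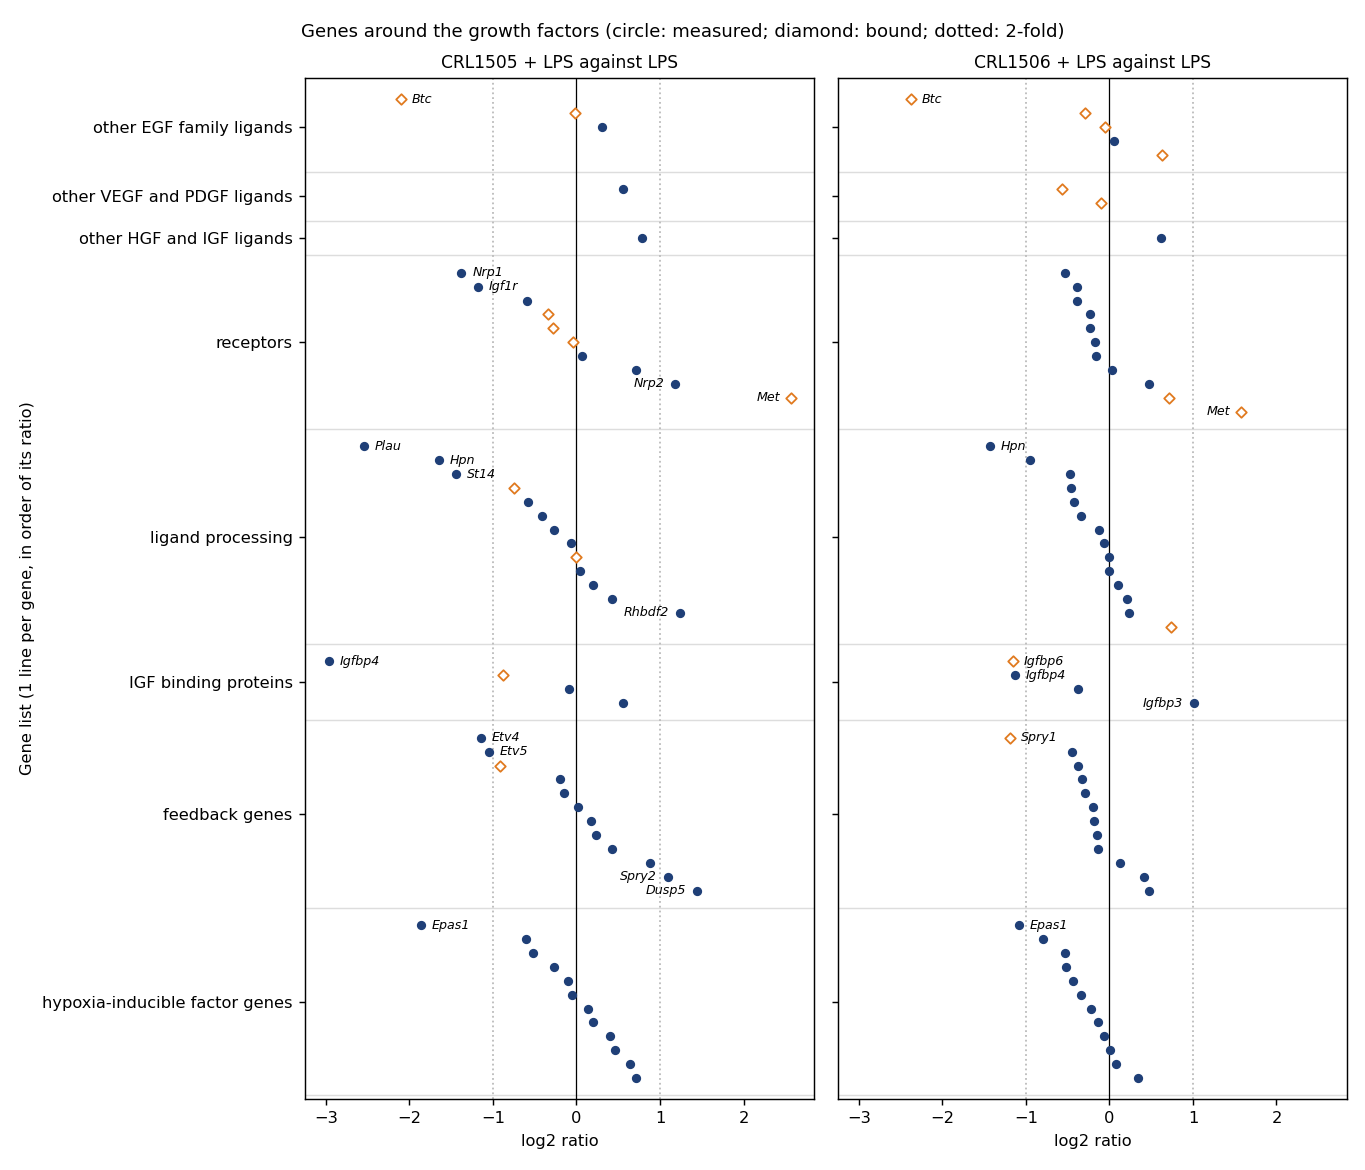
Log2 ratio to LPS (horizontal axis) of the genes of each list around the growth factors (vertical axis, 1 line for each gene with a ratio), for CRL1505 on the left and CRL1506 on the right. Circles are measured ratios, diamonds are bounds and dotted lines mark 2-fold, past which genes are named. *Igfbp4*, *Plau*, *Hpn* and *Epas1* lie far to the left with CRL1505 and less far with CRL1506, and *Met* lies to the right in both.

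Genes that receptor tyrosine kinase signaling is known to induce, many of them inhibitors that act as feedback, went both ways. In CRL1505 + LPS 2 of 12 were at least 2-fold higher and 2 lower (median 0.09), and in CRL1506 + LPS 0 and 1 of 12 (median -0.19). All genes compared had shares of 9.93% and 8.41% for CRL1505, and of 5.67% and 3.53% for CRL1506. *Dusp5*, an ERK phosphatase gene, was 2.73-fold higher with CRL1505 than in LPS (4067 against 2144) and 3.01-fold higher than with CRL1506 (1825), with a like value from its other probe. *Spry2* was 2.13-fold higher with CRL1505, and 4 of 7 other normalizations kept it past 2-fold, while its other probe gave a log2 ratio of only 0.48. *Etv4* and *Etv5*, transcription factor genes downstream of ERK, were 2.21-fold and 2.07-fold lower with CRL1505. *Errfi1*, the gene of an EGF receptor inhibitor, was 2.39-fold higher with CRL1505 than with CRL1506. *Spry1* was well above background in LPS alone (80.3, against 18.5 in CRL1505 + LPS and 29.5 in CRL1506 + LPS). It was at least 1.89-fold below LPS in CRL1505 + LPS and at least 2.28-fold below LPS in CRL1506 + LPS. The second bound was past 2-fold in 5 of 7 other normalizations, and the 2 bounds differ by the limit of each array, not by the *Spry1* signal.

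*Vegfa* is a known target of the hypoxia-inducible factors, and 12 of 14 genes of that pathway were well above background on the 3 arrays. *Epas1*, the gene of the HIF-2α subunit, had intensities of 8881, 1703 and 3944 for LPS, CRL1505 + LPS and CRL1506 + LPS. It was 3.63-fold lower with CRL1505, past 2-fold under all 7 other normalizations, and 2.12-fold lower with CRL1506, where 4 of 7 kept it. No other gene of the list passed 2-fold against LPS, so that 1 of 12 genes with a ratio was lower with each strain and 0 were higher. Over all genes, 9.93% were higher and 8.41% lower with CRL1505, and 5.67% and 3.53% with CRL1506. With so few genes, these counts are not read as a result about the list. The median was 0.04 for CRL1505 and -0.28 for CRL1506, beside 0.01 and -0.06 over all genes. *Hif1a* had log2 ratios of 0.64 and -0.23. *Ndrg1* was 2.08-fold higher with CRL1505 than with CRL1506, which 2 of 7 other normalizations kept past 2-fold.

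Macrophage markers went both ways. Of 8, with CRL1505 2 were at least 2-fold higher and 1 lower than in LPS. With CRL1506, 1 was higher and none lower. Over all genes compared, 9.93% passed upwards and 8.41% downwards with CRL1505, and 5.67% and 3.53% with CRL1506. Of the macrophage markers, *Csf1r*, the receptor gene of macrophage colony-stimulating factor, was 2.77-fold lower with CRL1505 than in LPS (log2 ratio -1.47) and had a ratio of -0.87 with CRL1506. *Fcgr1* was 5.28-fold higher and *Adgre1* 4.83-fold higher with CRL1505, and with CRL1506 *Fcgr1* had a log2 ratio of 0.95 while *Adgre1* was 2.005-fold higher. The less bright *Adgre1* probe showed a smaller rise over LPS, with a log2 ratio of 1.25 in CRL1505 + LPS. In CRL1506 + LPS that probe stayed inside 2-fold, at 0.85. Only 4 of 7 other normalizations kept the *Adgre1* call in CRL1506 + LPS. The part of the macrophage markers in the *Igf1* and *Pdgfb* ratios was not tested, and in such bulk samples fewer cells of a kind and less RNA for each cell cannot be told apart.

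Markers of fibroblasts, endothelium and epithelium were near background, except *Epcam* in LPS, while the T cell marker *Cd3e* was not (869, 540.4 and 837 in LPS, CRL1505 + LPS and CRL1506 + LPS). Of 5 fibroblast markers 0, 1 and 3 were well above background for LPS, CRL1505 + LPS and CRL1506 + LPS, and their summed signal in units of the 75th percentile was 0.15, 0.32 and 0.44. Of these, *Col1a2* was at least 3.50-fold higher in CRL1505 + LPS than in LPS, and *Col1a1* and *Dcn* were at least 3.60-fold and at least 4.12-fold higher in CRL1506 + LPS, with intensities of 91.5, 112.6 and 129.1, the *Col1a1* spot being uneven. Other normalizations lowered these log2 bounds to as little as 0.77, 0.74 and 0.90, and kept 5, 5 and 6 of 7 past 2-fold. Of 4 endothelial markers 0, 2 and 2 were above background (summed signal 0.071, 0.35 and 0.23), namely *Cdh5* (at least 2.98-fold higher) and *Tek* (at least 4.26-fold) in CRL1505 + LPS and *Cdh5* and *Tie1* (at least 2.46-fold) in CRL1506 + LPS, where the *Tek* and *Tie1* spots were uneven on the array that showed them. Of 7 other normalizations, 5 kept the 2-fold calls of *Cdh5* (CRL1505) and *Tie1*, and 7 that of *Tek*. Of 4 epithelial markers *Epcam* alone was above background, in LPS (162) and CRL1506 + LPS (58.0), and it was at least 3.81-fold and 2.63-fold lower in CRL1505 + LPS and CRL1506 + LPS. *Krt8*, *Krt18* and *Cdh1* were on no array well above background, and neither was the B cell marker *Cd79a*, while *Cd3e* and *Cd3d* were on all 3, with log2 ratios to LPS between -0.16 and 0.04. The part of these markers in the growth factor ratios was not tested.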

How the data were processed

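Files of spot intensities of the 3 arrays were analysed beside the table of log2 values. The authors deposited Feature Extraction output (version 12.0.3.1 in the files), whose processed intensity has local background and spatial trends removed but is not normalized between arrays. The log2 table that the authors deposited is normalized (median 6.77 on each array, correlation with the log2 intensity from 0.995 to 0.996), by settings not given in the sources used here. The labels name limma.

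From each log2 intensity the 75th percentile of the array's gene spots was subtracted (intensities of 743, 517 and 698 for LPS, CRL1505 + LPS and CRL1506 + LPS). Spots marked as outliers were dropped (467, 241 and 274), and none was saturated. Repeated spots were averaged, and the brightest probe without an outlier spot stood for a gene. Where 1 side was not well above background, it was set to the lowest such intensity of its array (33.3, 29.6 and 33.1) or its own, whichever was higher, which gives a bound, and where both were not, there is no ratio. A ratio of 2-fold or more was called. The tests of limma and the methods' t-test need replicates and were not run. Precision is limited by the number of arrays.

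The members and lists were chosen with earlier results of these data known. Named were all members, receptors of the members, list genes past 2-fold in any comparison, and the 3 genes nearest to the member with the largest ratios. Python 3.11.15 (NumPy 2.4.6, pandas 2.3.3, matplotlib 3.10.9) and R 4.3.3 with limma 3.58.1 (normexp with an offset of 50, quantile and cyclic loess normalization) were used, and the procedure was tested on simulated data. Of the marker lists 1 gene, and of the probe sequences 1, are not reported here.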

Additional observations from a re-analysis of the deposited data

How the results depend on the processing

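The count of growth factors past 2-fold, 1 in each comparison, is small and moved with 10 of 15 alternatives for CRL1505 against LPS, with 6 for CRL1506 against LPS and with 11 between the strains. Of these alternatives, the 75th percentile without outlier spots was chosen after seeing the data, and it left each count at 1. In CRL1505 + LPS against LPS it was 0 after the median shift, with the mean over probes and at 4-fold, 2 after quantile normalization, cyclic loess, the percentile over detected probes and with the deposited log2 table, 3 without the filter on dim probes and at 1.5-fold, and 4 with the spike-in scaling, all of them lower. In CRL1506 + LPS against LPS the count was 0 with the mean over probes and at 4-fold. It was 2 after the median shift and the spike-in scaling (all lower), 2 without the filter (1 higher and 1 lower) and 4 at 1.5-fold (2 higher and 2 lower). Between the strains the count was 0 after quantile normalization, cyclic loess, normexp and with the deposited table. It was also 0 with the mean over probes, with only probes detected on every array and at 4-fold. It was 2 with the percentile over detected probes and the spike-in scaling, and 3 without the filter (all lower). At 1.5-fold it was 3 (1 higher and 2 lower), and after the median shift the 1 gene was higher, not lower. Of 26 ratios with 326 values under alternatives, 253 moved by less than the SD between probes, 73 by more, and 17 turned sign. None of these 17 was a ratio past 2-fold, but few ratios were past 2-fold to begin with. A bound on the wrong side of 0 was given no value, so most alternatives could not turn the sign of a bound. Many of the 253 values did not move at all, since some alternatives left the probe and its signal as they were. No paired analysis was possible because each condition had 1 array, which also left no replicate to leave out. Probes near background (*Hbegf*, *Areg*, *Ereg*, *Vegfa*, *Vegfc*) are limited by their low signal.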
